A study of Mus musculus with 15 samples.

Results

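Collagen chains are the polypeptides that wind 3 at a time into the triple helix of collagen, the main protein of the extracellular matrix. Genes were taken as collagen chains where the Entrez Gene number of a count row maps to a mouse symbol of the form Col, number, a, number, and 44 of the 26301 genes in the count tables met this rule. By structure, 11 encode fibrillar chains, 6 encode type IV chains of basement membranes, 9 encode FACIT chains (fibril-associated collagens with interrupted triple helices) and 18 encode other chains. The last class holds 6 beaded filament chains of type VI, 2 multiplexins, 3 short chains, 4 transmembrane chains, the anchoring fibril chain of type VII and 2 further chains. The rule uses no measured value, but it was chosen with earlier results of these data known.

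The counts came from polyadenylated RNA of 3T3-L1, a line of mouse preadipocytes used as a culture model of adipocyte differentiation, on day 2 after insulin (1.67 µM), dexamethasone (1 µM) and IBMX (115 µg/mL) were given to confluent cells. In a knockdown set of 6 libraries, control cells with the empty retroviral vector (shEmpty) were compared with cells expressing a short hairpin RNA against Jmjd1a (shJmjd1a), to ask what loss of the histone demethylase JMJD1A does. In a rescue set of 9 libraries, shJmjd1a cells also expressed LacZ as control, wild-type JMJD1A (WT) or an iron-binding deficient JMJD1A (Mut), to ask which changes need the iron-dependent enzyme. Each of the 5 groups had 3 replicates, all groups of the rescue set carry the hairpin, and all lines were made by pMXs-based retroviral infection and antibiotic selection. WT and Mut were made resistant to the hairpin. The labels do not say whether replicates were separate cultures or infections, so the p-values measure the spread between these libraries, which may be technical. The study used stable lines established earlier, and a difference between lines cannot be told apart from one of the constructs they carry.

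Fibrillar chains of types I, II, III, V and XI assemble into the banded fibrils that give tissue its tensile strength, with types V and XI as the minor chains that start fibrils and limit their width. Type IV chains form the sheet of the basement membrane together with laminins and nidogens, type VI forms beaded filaments around cells, and multiplexins sit where basement membrane meets fibrils. Preadipocytes lie in a matrix rich in fibrillar collagen, while mature adipocytes are each wrapped in a basement membrane, and the matrix is remodelled as cells of this kind differentiate.

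Kdm3a, the gene of JMJD1A, had 171, 174 and 185 CPM (counts per 1e+06 after TMM scaling of library totals) in the shEmpty libraries and 129, 128 and 138 CPM in the shJmjd1a libraries (log2 fold change -0.42, SE 0.0484, adjusted p = 2.91e-08, edgeR). It stood at 122, 116 and 118 CPM with LacZ, at 1768, 1639 and 1662 CPM with WT and at 2288, 2199 and 2103 CPM with Mut, so the introduced forms are counted here, and Mut lay above WT (log2 fold change 0.38, SE 0.0345, adjusted p = 3.94e-12). The libraries held 11437058 to 25523148 counts (median 12916162), most in WT replicate 3. The 7 adipocyte markers (Adipoq, Fabp4, Plin1, Cebpa, Pparg, Lpl and Cd36) were all lower on knockdown, all higher with WT than with LacZ and all lower with Mut than with WT or LacZ, by edgeR at an adjusted p under 0.05. Fabp4, Cebpa and Pparg are among genes that the study chose on these samples for such a pattern, so their directions are not independent evidence. The 7 adipocyte markers summed to 5040.3 to 5111 CPM in shEmpty, 2678 to 2795 in shJmjd1a, 3352 to 3440.1 with LacZ, 3841 to 4206 with WT and 2573 to 2669 with Mut. In these and the marker sums that follow, CPM is taken on raw library totals without TMM scaling. The 7 preadipocyte and fibroblast markers had counts in every library and summed to 2024 to 2110.4 CPM in shEmpty, 1783 to 1861 in shJmjd1a, 1792 to 1860.3 with LacZ, 2050.2 to 2085 with WT and 1748 to 1814 with Mut. They did not move as 1 list, since on knockdown Thy1 and Pdgfrb were called higher and Dlk1, Ly6a and S100a4 lower. Dlk1 is likewise among the genes that the study chose on these samples. Marker lists of 4 genes each for macrophages and blood, endothelium, epithelium and osteoblasts summed to at most 4.02 CPM in any library, and of 4 muscle markers Myod1, Myog and Ckm were at 0 and Des made up 2.17 to 16.6 CPM. Of 4 chondrocyte markers, Acan and Matn1 had too few counts to be tested, and Sox9 made up most of a sum of 146 to 152 CPM in shEmpty, 193 to 209 in shJmjd1a, 219 to 229 with LacZ, 179 to 203 with WT and 230.1 to 254 with Mut. In bulk RNA, fewer cells that express a chain and less RNA of it per cell cannot be told apart, and the part of these marker changes in the collagen results was not tested.

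Collagen RNA took a large part of these libraries. Col4a1 held more counts than any other gene, averaged over libraries, and Col3a1 ranked 4, Col4a2 6, Col1a2 7, Col6a3 10, Col6a1 15, Col6a2 20 and Col1a1 21 among all genes. The 5 most counted chains held 72.4% and the 10 most counted held 96.8% of all counts on collagen chain genes. The share of all gene counts on the 44 genes was 4.20% ± 0.0173 (SD, n = 3) in shEmpty and 5.34% ± 0.065 in shJmjd1a, and the groups did not overlap. In the rescue set the share was 6.09% ± 0.115 with LacZ, 6.21% ± 0.164 with WT and 5.97% ± 0.124 with Mut, and these 3 groups overlapped. Fibrillar chains made up most of the step on knockdown, from 1.19% ± 0.00281 to 2.22% ± 0.0387 of all counts, while type IV chains went from 1.64% ± 0.00858 to 1.92% ± 0.0339. Type VI chains went the other way, from 1.26% ± 0.0121 to 1.13% ± 0.0113, and the multiplexins from 0.0658% ± 0.003 to 0.0315% ± 0.000883. With 3 against 3 libraries an exact permutation test cannot go below p = 0.10, so the shares were described without a test.

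**Figure D1:**
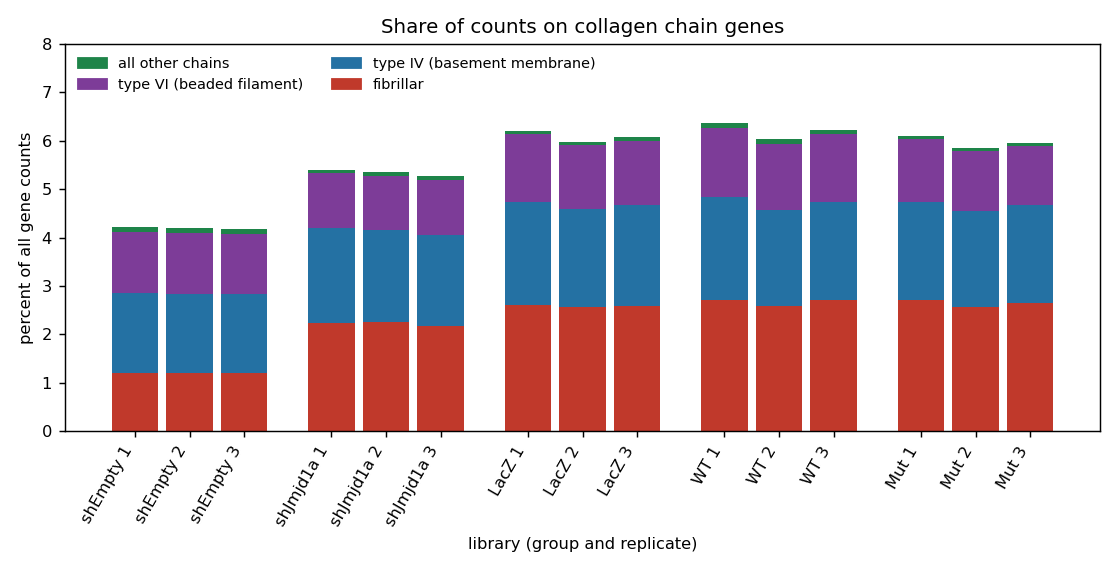
Share of all gene counts on collagen chain genes (vertical axis, percent) in each of the 15 libraries, stacked by class, with the knockdown set on the left and the rescue set on the right. The fibrillar part, at the foot of each bar, is 1.19% of counts in shEmpty and 2.22% in shJmjd1a on average, and the whole bars of the rescue set lie between 5.85% and 6.36%.

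Levels of different chains were compared per length, as FPKM, the CPM divided by the length of the merged exons in kb. In shEmpty cells Col4a1, which with Col4a2 makes the type IV network found in nearly all basement membranes, stood first at 1547 ± 10.0 FPKM (SD, n = 3), followed by the type VI chain Col6a1 at 949 ± 11.01, Col4a2 at 882 ± 12.9 and the fibrillar chain Col3a1 at 571 ± 0.962 FPKM. Col6a3 (427 ± 9.30 FPKM) and Col6a2 (410.4 ± 6.97) came next, then the type I chains Col1a2 (249.7 ± 3.20) and Col1a1 (178 ± 5.42). In shJmjd1a cells Col4a1 still led at 1817 ± 32.9 FPKM, but Col3a1 now ranked next at 1037 ± 37.8, within the spread of Col4a2 at 974 ± 31.1. Col1a2 at 499.6 ± 15.04 and Col1a1 at 476 ± 9.12 FPKM were also within their spread of each other and stood above Col6a2 at 365 ± 11.8 FPKM. These levels depend on the length taken. Merged exons of Col1a2 are 12145 bp against 5347 bp for its longest protein-coding transcript, and per that transcript Col1a2 stood at 567 FPKM in shEmpty and 1135 in shJmjd1a, above Col1a1 at 197 and 526. Per the longest transcript Col3a1 rose to the top of the order with WT, at 2079.8 FPKM against 1958 for Col4a1.

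Many chains were silent or nearly so. No read was counted in any library for Col9a1, Col26a1, Col6a4 and Col6a5, and 12 of the 44 genes, these 4 included, had at most 3 counts in every library. The other 8 were Col2a1, the main fibrillar chain of cartilage, Col24a1, Col10a1 of hypertrophic cartilage, the FACIT chains Col19a1 and Col22a1, the transmembrane chains Col13a1 and Col25a1, and Col6a6. A count of 0 allows up to 3 counts per library, which for counting error alone sets the limit of what could be seen. Col9a2, Col14a1, Col4a4 and Col4a6 had at most 9 counts in any library and were not tested either, which left 16 genes untested in both sets. After the filter on low counts, 25 chains were tested on knockdown and 28 in the rescue libraries, and 23 chains had at least 10 counts in every library of a set, in either set. Col4a3, Col8a2 and Col23a1 entered the rescue set only, and chains this close to the filter can pass it through the group in which they are higher.

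Promoter sequences are shown for 5 chains on which the results turn, to set the upstream regions of chains that rose and fell side by side. The Col11a1 window was fixed as that of the largest called change on knockdown, and those of Col1a2, Col3a1, Col18a1 (which has 2 annotated starts) and Col5a3 were chosen after their values were seen. Each run gives the 250 bases before an annotated start, 5′ to 3′ on the strand of the gene, from RefSeq on GRCm38.p6, with capitals for every match, on either strand, to the CCAAT box, to the TATA box as TATAAA or to the GC box as GGGCGG.
Col11a1 chr3:114030290-114030539, plus strand: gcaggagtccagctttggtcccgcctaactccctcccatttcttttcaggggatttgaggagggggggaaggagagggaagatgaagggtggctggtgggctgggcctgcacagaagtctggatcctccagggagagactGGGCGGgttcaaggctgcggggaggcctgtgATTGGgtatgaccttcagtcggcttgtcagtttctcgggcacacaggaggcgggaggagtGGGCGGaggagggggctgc
Col1a2 chr6:4505368-4505617, plus strand: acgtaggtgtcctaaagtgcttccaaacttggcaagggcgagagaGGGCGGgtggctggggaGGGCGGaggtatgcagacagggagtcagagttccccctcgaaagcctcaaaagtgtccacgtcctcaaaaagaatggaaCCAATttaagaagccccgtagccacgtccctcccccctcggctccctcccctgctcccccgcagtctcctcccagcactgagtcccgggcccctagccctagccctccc
Col3a1 chr1:45311288-45311537, plus strand: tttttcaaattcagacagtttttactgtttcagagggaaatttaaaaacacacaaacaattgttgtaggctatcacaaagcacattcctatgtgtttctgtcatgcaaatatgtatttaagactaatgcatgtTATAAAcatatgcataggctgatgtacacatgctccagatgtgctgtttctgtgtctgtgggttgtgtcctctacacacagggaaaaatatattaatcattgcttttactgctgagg
Col18a1 chr10:77113706-77113955, minus strand: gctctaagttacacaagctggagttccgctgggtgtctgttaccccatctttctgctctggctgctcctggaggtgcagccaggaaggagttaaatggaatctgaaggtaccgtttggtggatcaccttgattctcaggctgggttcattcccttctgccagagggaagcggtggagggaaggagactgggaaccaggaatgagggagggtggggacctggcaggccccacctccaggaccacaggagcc
Col18a1 chr10:77166531-77166780, minus strand: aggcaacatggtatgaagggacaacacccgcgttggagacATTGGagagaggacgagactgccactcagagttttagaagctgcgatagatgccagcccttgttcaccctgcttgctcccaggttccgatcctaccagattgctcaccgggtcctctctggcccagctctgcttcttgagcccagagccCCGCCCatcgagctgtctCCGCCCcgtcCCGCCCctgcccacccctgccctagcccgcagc
Col5a3 chr9:20815068-20815317, minus strand: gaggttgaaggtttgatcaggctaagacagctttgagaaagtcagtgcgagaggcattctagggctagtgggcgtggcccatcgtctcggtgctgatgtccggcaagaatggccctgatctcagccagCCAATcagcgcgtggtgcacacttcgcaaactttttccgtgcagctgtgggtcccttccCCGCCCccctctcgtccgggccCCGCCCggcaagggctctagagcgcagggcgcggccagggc
The windows of Col11a1, Col1a2, Col5a3 and the upstream start of Col18a1 each hold 2 or 3 GGGCGG and 1 CCAAT, and the other 2 windows hold neither. The Col11a1 window holds GGGCGG at 110 and 19 bases and a reverse CCAAT at 79 bases before the start, and that of Col1a2 holds GGGCGG at 205 and 188 bases and CCAAT at 109 bases. The Col3a1 window, with a GC content of 35.2%, holds TATAAA at 117 bases and neither of the other motifs. The window of the upstream start of Col18a1, the chain whose end is cut off as endostatin, holds 3 reverse GGGCGG and a reverse CCAAT, the window of its downstream start holds none of the 3 motifs, and that of Col5a3 holds CCAAT at 122 bases and 2 reverse GGGCGG. Of the 44 genes, 35 had at least 1 window, 38 windows in all. GGGCGG was found in 57.89% of the 38 windows and in 32.74% of all 32851 windows of the table, CCAAT in 34.21% and 33.85%, and TATAAA in 13.16% and 12.37%. A match describes the letters alone. Col1a1, Col5a2, Col9a3, Col12a1, Col4a3, Col26a1, Col14a1, Col22a1 and Col2a1 had no window.

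On knockdown of JMJD1A, most collagen chains that were tested changed, and most of those rose. Of the 25 chains tested, 15 were higher in shJmjd1a than in shEmpty cells and 7 were lower at an adjusted p under 0.05 in edgeR's quasi-likelihood test, while 22.3% of all 12272 genes tested were higher and 23.9% were lower. As shares of the tested chains these are 60% higher and 28% lower, the lower share being near that of all genes. The median log2 fold change of the 25 was 0.27, and -0.0032 over all genes. The shares of all genes, here and below, were not matched for count level. Several chains are among the most counted genes, where a shift as small as -0.11 (Col6a1) was called. By class, 8 of 9 fibrillar chains rose and 1 fell, 3 of 3 type IV chains rose, and 2 of 4 FACIT chains rose and 2 did not pass the test. Of 9 other chains 6 fell, 2 rose (22.2%, near the share of all genes) and 1 did not pass. Where overlap between groups is mentioned below, it only describes the 3 libraries of each group. No share of all genes without overlap is given beside it.

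**Figure D2:**
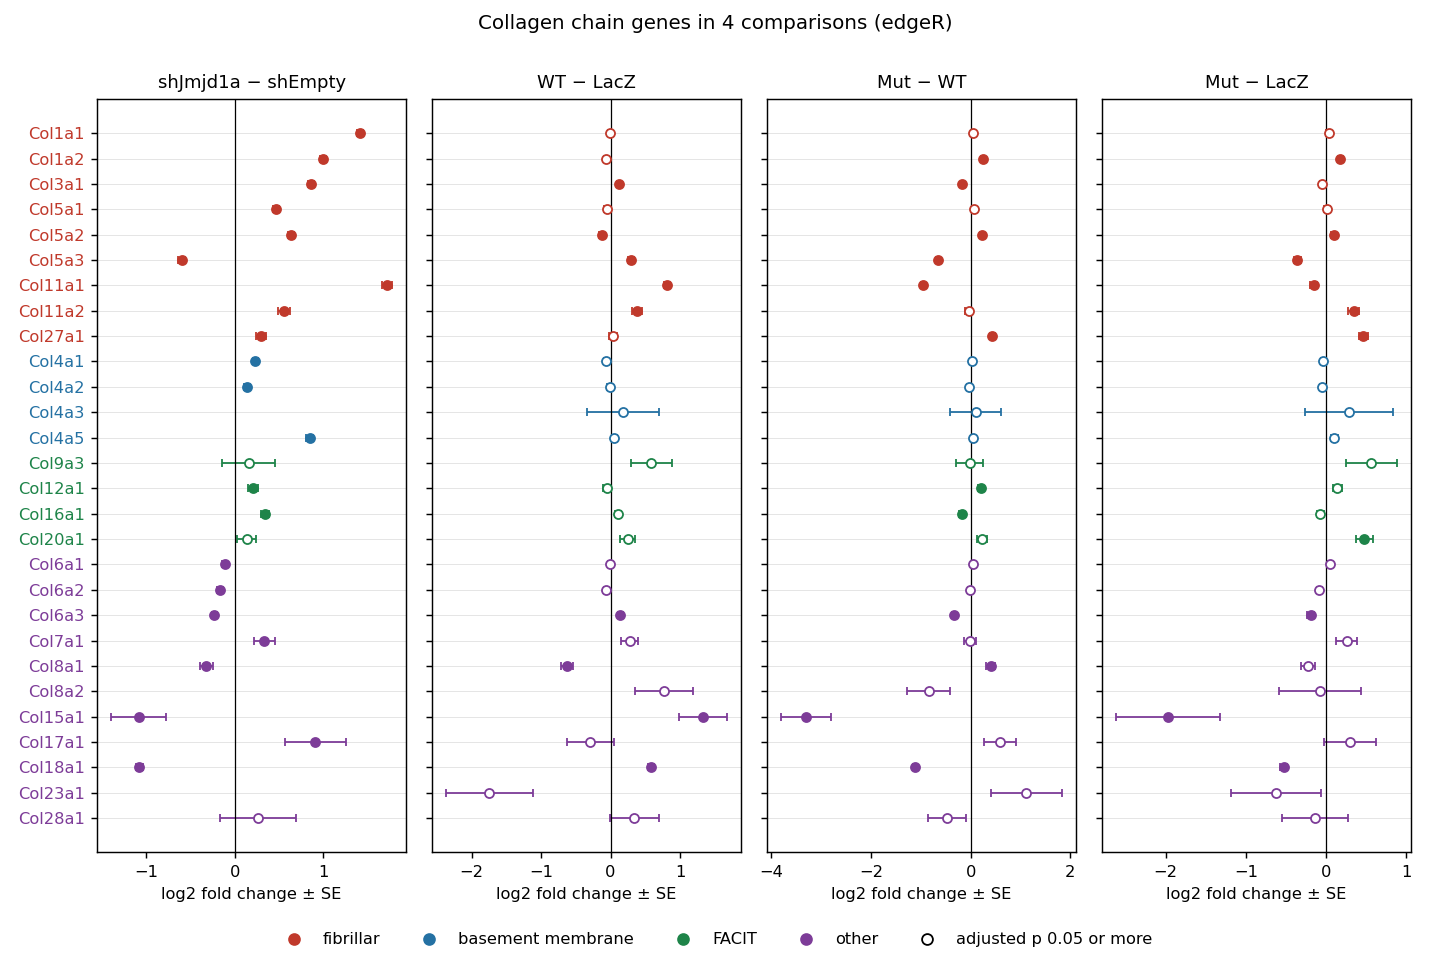
Log2 fold change ± SE (horizontal axis, a different range in each panel) of each tested collagen chain gene (rows, coloured by structural class) in the 4 comparisons, with filled points for an adjusted p under 0.05. On knockdown the fibrillar and type IV chains lie to the right of 0 except Col5a3, and the type VI chains, Col8a1, Col15a1 and Col18a1 lie to the left.

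Among fibrillar chains the largest change was that of Col11a1, the alpha 1 chain of type XI and a minor fibril component (chr3:113733458-113923636 on mm9, plus strand). It had 54.8, 61.2 and 56.7 CPM in the shEmpty libraries and 182, 188 and 199 CPM in the shJmjd1a libraries. All knockdown libraries were thus above all control libraries, 3.30-fold on average (log2 fold change 1.72, SE 0.0544, adjusted p = 3.74e-20). Its partner Col11a2 was at 51.6, 49.1 and 50.8 CPM and at 70.8, 72.8 and 79.3 CPM, again without overlap and by less (log2 fold change 0.56, SE 0.0635, adjusted p = 2.62e-08). The type I chains, which form the bulk of most fibrils, both rose. Col1a1 (chr11:94797538-94814356) went from 1208, 1155 and 1140.0 CPM to 3167, 3144 and 3054 CPM (log2 fold change 1.42, SE 0.0351, adjusted p = 1.29e-22). Col1a2 (chr6:4454814-4491543) went from 3068, 2991 and 3039 CPM to 6129, 6212 and 5862 CPM (log2 fold change 1.00, SE 0.0331, adjusted p = 9.36e-20). Every knockdown library lay above every control library for both chains. Col3a1, whose type III homotrimers share fibrils with type I (chr1:45368383-45406551), was at 4785, 4799 and 4799.5 CPM in shEmpty and 8857, 8914 and 8338 CPM in shJmjd1a (log2 fold change 0.86, SE 0.0327, adjusted p = 2.06e-18).

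The type V chains, which nucleate fibrils, split. Col5a1 was at 1329.9, 1334 and 1316 CPM and then at 1859, 1801 and 1847 CPM (log2 fold change 0.47, SE 0.0337, adjusted p = 2.67e-12). Col5a2 was at 1102, 1133 and 1141 CPM and then at 1747, 1743 and 1768 CPM (log2 fold change 0.64, SE 0.0341, adjusted p = 3.80e-15). Col5a3 (chr9:20574494-20619511), the chain of type V with the lowest level per length, went down instead, from 327, 332 and 328 CPM to 211, 216 and 225 CPM (log2 fold change -0.60, SE 0.0412, adjusted p = 1.05e-12). It was the fibrillar chain that fell. Col5a3 is also on a list of genes that the study chose on these samples, so its direction is not independent evidence. Col27a1, a fibrillar chain known from cartilage, rose slightly, from 124, 134 and 131 CPM to 148, 152 and 179 CPM (log2 fold change 0.30, SE 0.0589, adjusted p = 1.86e-04).

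The 3 tested chains of the basement membrane class rose, by unequal amounts. Col4a1 (chr8:11198423-11312826) was at 10570.3, 10468 and 10597 CPM in shEmpty and 12606, 12405 and 12159 CPM in shJmjd1a (log2 fold change 0.23, SE 0.03, adjusted p = 2.43e-07). Its partner Col4a2 was at 5934, 5779 and 5796 CPM and 6671, 6416 and 6264 CPM (log2 fold change 0.14, SE 0.0324, adjusted p = 5.38e-04). Both shifts were small. Col4a5, a chain of the more specialised type IV networks (chrX:137909928-138123778), was at 136, 132 and 136 CPM and 249, 241 and 238 CPM (log2 fold change 0.85, SE 0.0436, adjusted p = 1.65e-15), a larger fold change from a much lower count. Its head-to-head neighbour Col4a6, whose start lies 1308 bp away on the opposite strand, had 0 to 2 counts in these 6 libraries.

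Of the FACIT chains, which sit on the surface of fibrils, Col16a1 was at 135, 132 and 140.1 CPM in shEmpty and 163, 176 and 177 CPM in shJmjd1a (log2 fold change 0.34, SE 0.0478, adjusted p = 9.46e-07). Col12a1, a large chain that decorates type I fibrils, was at 123, 137 and 135 CPM and 147, 142 and 167 CPM (log2 fold change 0.21, SE 0.0559, adjusted p = 0.00307). Both rose. Col20a1 (log2 fold change 0.14, adjusted p = 0.325) and Col9a3 (log2 fold change 0.16, adjusted p = 0.703) did not pass, and 6.07% of the exon length of Col9a3 overlaps the antisense gene Tcfl5, whose reads cannot be told apart without the strand setting of the counting.

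The remaining class moved mostly down. The type VI chains, which surround adipocytes and many other cells with microfilaments, fell together by small amounts. Col6a3 was at 5110.5, 5207 and 4985 CPM in shEmpty and 4383, 4251 and 4432 CPM in shJmjd1a (log2 fold change -0.23, SE 0.0324, adjusted p = 1.25e-06). Col6a2 was at 3479.9, 3366 and 3405 CPM and 3125, 3055 and 2930.4 CPM (log2 fold change -0.17, SE 0.0337, adjusted p = 1.28e-04). Col6a1 was at 4212, 4117 and 4178 CPM and 3879, 3837 and 3855 CPM (log2 fold change -0.11, SE 0.0315, adjusted p = 0.00434). The call of Col6a1 was lost without shEmpty replicate 1 (adjusted p = 0.0672, edgeR). The multiplexins fell most. Col18a1 (chr10:76514923-76629293) had 662, 625 and 689 CPM in shEmpty and 324, 309.6 and 305 CPM in shJmjd1a, 2.11-fold lower (log2 fold change -1.08, SE 0.0419, adjusted p = 3.40e-18). Col18a1 is on the list that the study chose on these samples as well. Col15a1, the other multiplexin, fell by a similar factor from a far lower count, 2.203, 3.02 and 3.17 CPM against 1.66, 1.05 and 1.32 CPM (log2 fold change -1.08, SE 0.31, adjusted p = 0.00498). The short chain Col8a1, known from vessel walls and the cornea, was at 49.3, 43.01 and 46.9 CPM and 35.5, 37.7 and 38.3 CPM (log2 fold change -0.32, SE 0.074, adjusted p = 7.38e-04).

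The chains of this class that rose were rare. Col7a1, the anchoring fibril chain of skin, was at 15.2, 13.9 and 14.2 CPM and 15.9, 16.7 and 21.7 CPM (log2 fold change 0.34, adjusted p = 0.0233). Col17a1, a transmembrane chain of hemidesmosomes, was at 0.793, 1.21 and 1.81 CPM and 3.49, 2.18 and 1.94 CPM (log2 fold change 0.91, adjusted p = 0.0307). Neither call was firm. That of Col7a1 was lost without shEmpty replicate 2 (adjusted p = 0.0633), shEmpty replicate 3 (0.0778) or shJmjd1a replicate 3 (0.228) and with libraries thinned to the smallest total (0.0764), and that of Col17a1 without shEmpty replicate 1 (0.14), shEmpty replicate 2 (0.0815) or shJmjd1a replicate 1 (0.205), all by edgeR. Col28a1 did not pass (log2 fold change 0.27, adjusted p = 0.651).

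**Figure D3:**
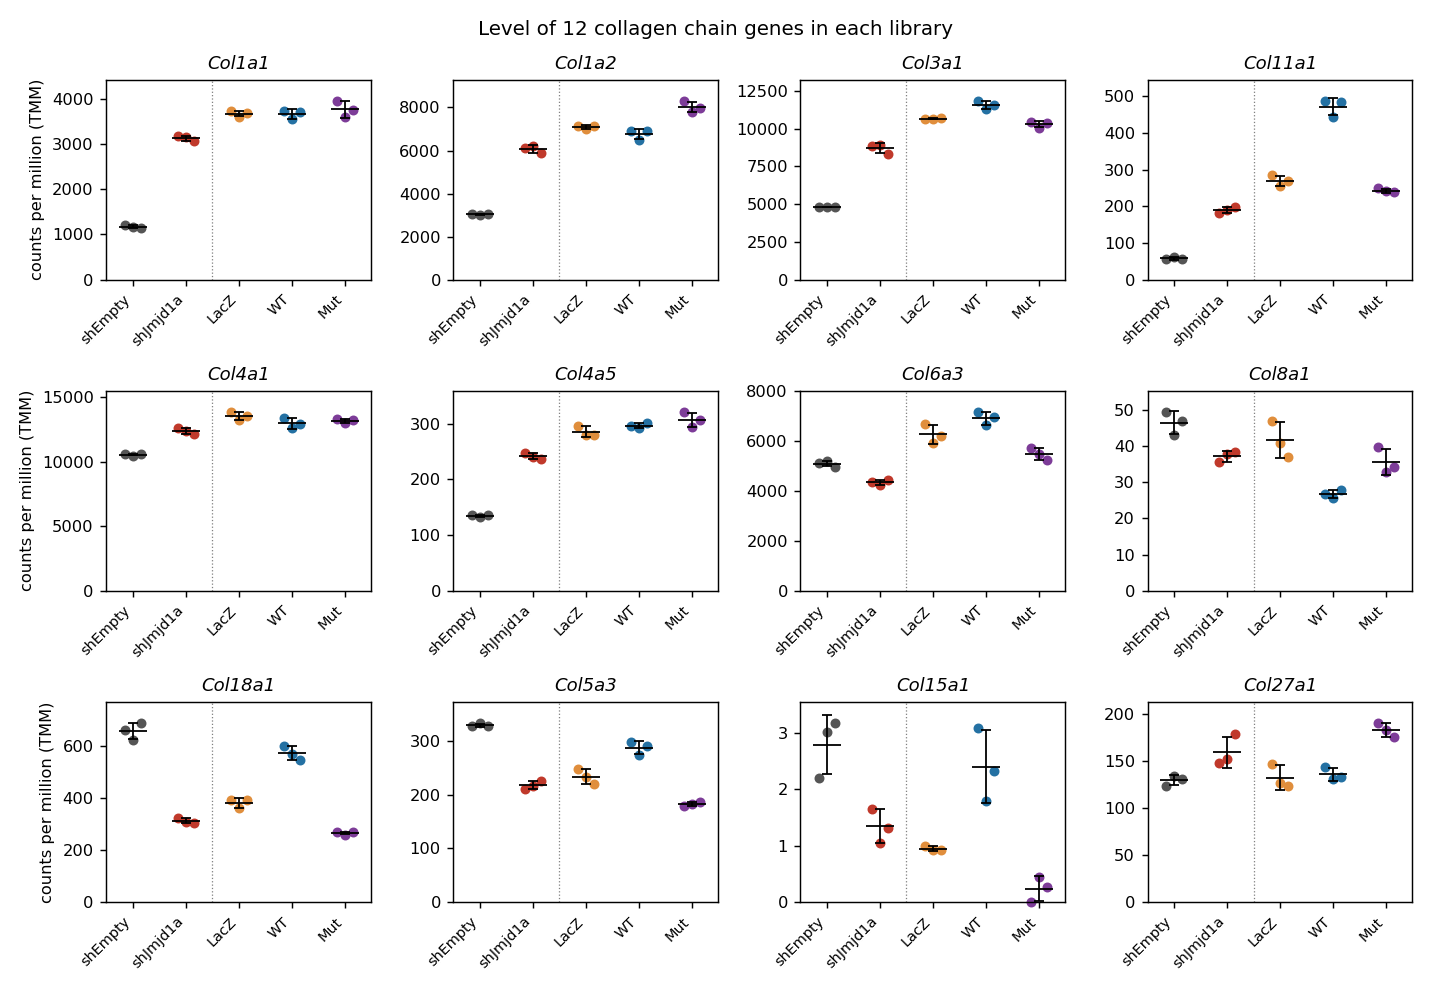
Level of 12 collagen chain genes in every library (points, TMM-scaled CPM, vertical axes from 0) with the mean and SD of each group (bars), the knockdown and rescue sets being scaled apart and parted by a dotted line. Col1a1 lies near 1168 CPM in shEmpty and 3122 CPM in shJmjd1a, and near 3671 CPM with LacZ and 3661 CPM with WT. Col18a1 lies at 659 CPM in shEmpty and 313 CPM in shJmjd1a, and at 382 CPM with LacZ and 574 CPM with WT. Levels were not compared between the sets.

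Genes that modify, process or bind collagen were set beside the chains, with 22.3% of all genes higher and 23.9% lower as the background. Of 18 tested genes for modification and folding, 6 rose (33.3%) and 4 fell (22.2%, near the background) on knockdown by edgeR, with a median log2 fold change of -0.015. Those that rose most were P4ha3 (log2 fold change 1.28, adjusted p = 5.67e-07) and P4ha2 (log2 fold change 0.43, adjusted p = 4.65e-08), prolyl 4-hydroxylase subunits that stabilise the triple helix, and Plod2 (log2 fold change 1.16, adjusted p = 3.04e-15), a lysyl hydroxylase. Those that fell most were P3h1 (log2 fold change -0.34, adjusted p = 9.87e-06), Plod3 (log2 fold change -0.22, adjusted p = 4.82e-05) and Crtap (log2 fold change -0.20, adjusted p = 0.00101). Of 11 tested genes for procollagen processing and crosslinking, 7 rose (63.6%, median 0.25), led by the lysyl oxidases Loxl4 (log2 fold change 1.13, adjusted p = 2.83e-10), Lox (log2 fold change 1.09, adjusted p = 4.56e-19) and Loxl3 (log2 fold change 0.81, adjusted p = 8.07e-09), and Loxl1 (log2 fold change -0.60, adjusted p = 1.64e-12) fell (9.09%). Of 7 tested receptors, with a median of 0.19, 4 rose (57.1%) and 0 fell by edgeR (0 at an unadjusted p under 0.05 and 0 by DESeq2 as well), the largest changes being the integrin chains Itga1 (log2 fold change 1.62, adjusted p = 3.38e-04) and Itga11 (log2 fold change 1.46, adjusted p = 0.0128), both below 3 CPM on average in either group, and Ddr2 (log2 fold change 0.73, adjusted p = 3.59e-14), a receptor kinase for fibrillar collagen. Of 12 tested partners of type IV collagen in the basement membrane, with a median of -0.25, 6 fell (50%), with Lama5 (log2 fold change -1.90, adjusted p = 4.24e-07) and the nidogen Nid2 (log2 fold change -1.66, adjusted p = 6.93e-20) the furthest down, and 3 rose (25%, near the background), Agrn (log2 fold change 0.45, adjusted p = 2.75e-10), Sparc (log2 fold change 0.38, adjusted p = 1.90e-09) and Lamb2 (log2 fold change 0.27, adjusted p = 6.35e-05). Lama5 is on the list that the study chose on these samples. The part of these genes in the levels of the chains was not tested.

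Overexpressing wild-type JMJD1A in knockdown cells moved fewer chains. Of 28 chains tested, 7 were higher with WT than with LacZ and 2 were lower by edgeR, 25% and 7.14% of the tested chains, while 4.98% of all 12557 genes tested were higher and 4.52% were lower. The median log2 fold change was 0.083 over the 28 chains and -0.00014 over all genes. By class, 4 fibrillar chains rose and 1 fell, no type IV or FACIT chain passed the test by edgeR, and of the other chains 3 rose and 1 fell. At an unadjusted p under 0.05, 1 of 4 type IV chains was lower and 2 of 4 FACIT chains were higher with WT, and DESeq2 called 0 of either.

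The chains that rose with WT included those that had fallen furthest on knockdown. Col18a1 was at 393, 361 and 393 CPM with LacZ and 602, 572 and 548 CPM with WT, with no overlap (log2 fold change 0.58, SE 0.0394, adjusted p = 7.58e-16). Col5a3 was at 248, 232 and 220.4 CPM and 297, 274 and 291 CPM (log2 fold change 0.30, SE 0.0428, adjusted p = 8.73e-07). Col15a1 was at 1.00, 0.92 and 0.919 CPM and 3.09, 1.80 and 2.33 CPM (log2 fold change 1.33, SE 0.343, adjusted p = 0.00653). All 3 lay higher in each WT library than in each LacZ library. Col6a3 rose too, from 6692, 5933 and 6195 CPM to 7164, 6634 and 6970.5 CPM (log2 fold change 0.14, SE 0.0397, adjusted p = 0.0229), but LacZ replicate 1 lay above WT replicate 2. Its call was lost without LacZ replicate 2 (adjusted p = 0.106), LacZ replicate 3 (0.0786), WT replicate 1 (0.108) or WT replicate 3 (0.0645), by edgeR. The joint count is free of shared libraries, since the knockdown and rescue sets have none in common. Of the 7 chains that fell on knockdown, these 4 were higher with WT, 57.1%, against 336 genes or 11.5% of all genes that fell. Col18a1 and Col5a3 are on the list that the study chose on these samples for falling on knockdown and rising with WT. Their part of this count is therefore not independent evidence.

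Other chains that rose with WT had already risen on knockdown. Col11a1 was at 284, 256 and 268 CPM with LacZ and 486, 444 and 484 CPM with WT (log2 fold change 0.81, SE 0.0413, adjusted p = 6.43e-20). It was thus called higher both on knockdown and with WT, where Kdm3a stood above its LacZ level by a log2 fold change of 3.83 (SE 0.0412). Col11a2 was at 49.7, 44.6 and 39.2 CPM and 61.1, 55.9 and 57.5 CPM (log2 fold change 0.38, SE 0.07, adjusted p = 8.75e-05). Col3a1 was at 10653, 10608 and 10694 CPM and 11814, 11318 and 11584 CPM (log2 fold change 0.12, SE 0.0284, adjusted p = 0.0029), a call lost without WT replicate 1 (adjusted p = 0.0551, edgeR). These were 3 of the 15 chains that rose on knockdown, 20%, against 114 genes or 4.16% of all genes that rose. Col5a2 was the chain that rose on knockdown and was lower with WT, at 1941, 1899.7 and 1908 CPM with LacZ and 1745, 1708 and 1805 CPM with WT (log2 fold change -0.13, SE 0.0314, adjusted p = 0.00411), where 296 genes or 10.8% of all genes that rose did so. Col8a1 fell in both comparisons, here from 46.9, 40.9 and 37.1 CPM to 26.7, 25.6 and 27.9 CPM (log2 fold change -0.63, SE 0.0839, adjusted p = 2.20e-07).

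The remaining 11 of the 15 chains that rose on knockdown did not pass the test with WT, 73.3%, against 85% of all genes that rose. Col1a1 was at 3732, 3602 and 3680.1 CPM with LacZ and 3737, 3540.1 and 3704 CPM with WT (log2 fold change -0.0042, SE 0.0326, adjusted p = 0.969), and the groups overlapped. Col1a2 was at 7152, 6992 and 7119 CPM and 6898, 6509 and 6908 CPM (log2 fold change -0.066, SE 0.0304, adjusted p = 0.206), lower in each WT library and not called. Type I RNA thus showed no called difference between LacZ and WT cells, where both had been called higher on knockdown. Col4a1 was at 13819.5, 13197 and 13525 CPM and 13394, 12579 and 12891 CPM (log2 fold change -0.061, SE 0.029, adjusted p = 0.223). Col4a2 was at 7337, 6904 and 7053 CPM and 7319, 6763 and 7022 CPM (log2 fold change -0.013, SE 0.0312, adjusted p = 0.875). Col4a5 was at 297, 281 and 280.0 CPM and 296, 292 and 302 CPM (log2 fold change 0.055, SE 0.0399, adjusted p = 0.495). No type IV chain passed the test with WT. Col5a1 was at 1917, 1792 and 1797 CPM with LacZ and 1816, 1659 and 1821 CPM with WT (log2 fold change -0.056, adjusted p = 0.404). Col27a1 was at 147, 126 and 124 CPM with LacZ and 144, 131 and 133 CPM with WT (log2 fold change 0.034, adjusted p = 0.798). Both overlapped between the groups. Col16a1, a FACIT chain, was at 163, 154 and 152 CPM with LacZ and 170.1, 168 and 169 CPM with WT (log2 fold change 0.11, adjusted p = 0.115), higher in each WT library but not called. Col12a1 was at 144, 119 and 136 CPM with LacZ and 130.4, 132 and 123 CPM with WT (log2 fold change -0.057, adjusted p = 0.632), again with overlap. Of the type VI chains that had fallen on knockdown, Col6a1 was at 3989, 3941 and 3931 CPM with LacZ and 4021, 3924 and 3868 CPM with WT (log2 fold change -0.006, adjusted p = 0.947). Col6a2 was at 3225, 3207 and 3146 CPM with LacZ and 3099, 3030.3 and 3028 CPM with WT (log2 fold change -0.065, adjusted p = 0.202), lower in each WT library and not called. The rare chains Col7a1, Col17a1, Col20a1, Col28a1, Col9a3, Col4a3, Col8a2 and Col23a1 did not pass either, with log2 fold changes from -1.74 for Col23a1 to 0.77 for Col8a2, both resting on at most 28 counts per library. Col23a1 was called lower without LacZ replicate 1 (adjusted p = 0.013, edgeR).

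**Figure D4:**
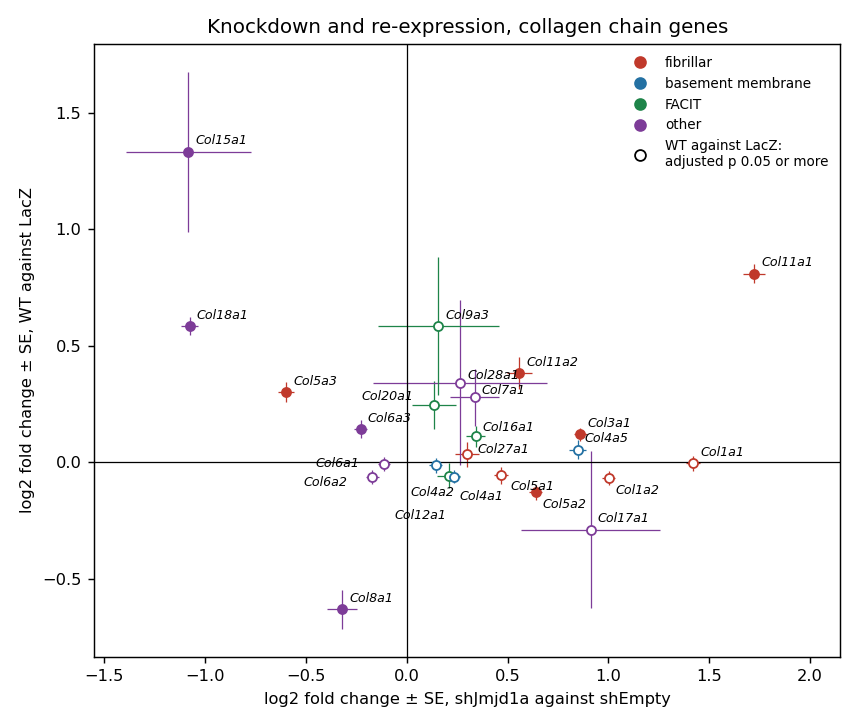
Log2 fold change ± SE on knockdown (horizontal axis) and with WT against LacZ (vertical axis) of the 25 collagen chain genes tested in both sets, coloured by class and filled where the WT comparison passed an adjusted p under 0.05. Col15a1, Col18a1 and Col5a3 lie at upper left, Col11a1 stands furthest to the upper right, and Col1a1, Col1a2 and Col4a5 lie to the right near the line of no change with WT.

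With WT, where 4.98% of all genes were higher and 4.52% lower, 4 of 18 genes for modification and folding fell (22.2%, median -0.08) and 0 rose by edgeR (0 at an unadjusted p under 0.05 and 0 by DESeq2), Fkbp14 (log2 fold change -0.22, adjusted p = 0.0319), Fkbp10 (log2 fold change -0.19, adjusted p = 7.53e-04) and P4ha2 (log2 fold change -0.17, adjusted p = 0.0332) the furthest. In the crosslinking list, with a median of -0.026 over 11 genes, Tll1 (log2 fold change -1.06, adjusted p = 9.40e-04), a procollagen protease, and Lox (log2 fold change -0.20, adjusted p = 3.02e-05) fell and Loxl1 (log2 fold change 0.25, adjusted p = 6.13e-06) rose, each against its direction on knockdown. Of the 7 receptors (median -0.16), Ddr2 (log2 fold change -0.26, adjusted p = 1.84e-06), Ddr1 (log2 fold change -0.19, adjusted p = 0.025) and Mrc2 (log2 fold change -0.12, adjusted p = 0.0199), the endocytic receptor of collagen fragments, fell (42.9%). Of the 13 basement membrane partners (median 0.01), Lamb3 (log2 fold change 2.10, adjusted p = 1.58e-04), Lama5 (log2 fold change 1.76, adjusted p = 3.06e-04) and Nid2 (log2 fold change 0.51, adjusted p = 7.87e-08) rose (23.1%) and Lamc1 (log2 fold change -0.22, adjusted p = 3.45e-05) fell (7.69%). Lamb3 and Lama5 were below 3 CPM on average in both groups. As said above, Lama5 is on the list that the study chose on these samples, so its direction is not independent evidence.

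Cells with Mut differed from cells with WT in 12 of 28 chains by edgeR, 7 lower (25%) and 5 higher (17.9%), while 11.7% of all genes were lower and 12.1% higher. The median log2 fold change was 0.0026 for the chains and -0.0012 for all genes. Against LacZ, 5 chains were lower with Mut (17.9%) and 5 higher (17.9%), while 4.46% of all genes were lower and 4.78% higher, with medians of -0.012 and 0.00052. The 3 comparisons of the rescue set share libraries and are therefore given side by side, and Kdm3a itself differed between Mut and WT as above.

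Within the rescue set both multiplexins were lowest with Mut. Col18a1 was at 268, 259.8 and 268 CPM in the Mut libraries, below every WT library (log2 fold change -1.11, SE 0.0407, adjusted p = 1.01e-25) and below every LacZ library (log2 fold change -0.53, SE 0.0412, adjusted p = 2.24e-13). Col15a1 was at 0, 0.437 and 0.257 CPM with Mut, 0 to 6 counts per library, against WT (log2 fold change -3.30, SE 0.5, adjusted p = 1.17e-06) and against LacZ (log2 fold change -1.97, SE 0.646, adjusted p = 0.0445). The second of these calls was weak. It was lost without any of LacZ replicates 1 (adjusted p = 0.0887), 2 (0.0806) and 3 (0.0871), Mut replicates 1 (0.254) and 3 (0.111) and WT replicate 3 (0.0503), and with thinned libraries (0.0643), by edgeR. Its fitted fold changes rest on few counts. Col5a3 was at 179, 183 and 186 CPM with Mut, lower than with WT (log2 fold change -0.66, SE 0.0441, adjusted p = 2.60e-16) and than with LacZ (log2 fold change -0.36, SE 0.0449, adjusted p = 1.08e-07). The adipocyte markers, summed above, were also lowest with Mut within the rescue set, and their part in these levels was not tested. Col18a1 and Col5a3 are on the list that the study chose on these samples, so their directions here are not independent evidence.

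Col11a1 was at 248, 241 and 238 CPM with Mut, 1.95-fold lower than with WT (log2 fold change -0.96, SE 0.042, adjusted p = 8.36e-23), and close to the LacZ libraries (log2 fold change -0.15, SE 0.0432, adjusted p = 0.0185). The small difference from LacZ was no longer called without LacZ replicate 1 (adjusted p = 0.129), LacZ replicate 3 (0.0563), Mut replicate 2 (0.0693) or Mut replicate 3 (0.0707), by edgeR. Col3a1 stood at 10459, 10061 and 10380.3 CPM, lower than with WT (log2 fold change -0.17, SE 0.0284, adjusted p = 9.51e-06) and not called against LacZ (log2 fold change -0.048, adjusted p = 0.335). Col6a3 stood at 5728, 5499 and 5251 CPM, lower than with WT (log2 fold change -0.33, SE 0.0398, adjusted p = 7.51e-07) and than with LacZ (log2 fold change -0.19, SE 0.0398, adjusted p = 0.00273). Col16a1 was lower than with WT at 153, 143 and 151 CPM (log2 fold change -0.18, SE 0.0449, adjusted p = 0.0019) and was not called against LacZ (log2 fold change -0.07, adjusted p = 0.396).

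Other chains were higher with Mut. Col1a2 had 8295, 7802 and 7975 CPM with Mut, above every library with WT (log2 fold change 0.24, SE 0.0304, adjusted p = 1.63e-08) and with LacZ (log2 fold change 0.18, SE 0.0304, adjusted p = 4.09e-05). Its partner Col1a1 had 3945, 3589.9 and 3747 CPM and passed neither test (log2 fold change 0.039, adjusted p = 0.436 against WT, log2 fold change 0.035, adjusted p = 0.597 against LacZ). Col5a2 had 2081, 2033 and 2028 CPM, higher than with WT (log2 fold change 0.22, SE 0.0315, adjusted p = 2.54e-07), while its call against LacZ (log2 fold change 0.10, adjusted p = 0.0452) was lost with RLE size factors (0.0502), with the LacZ and Mut groups alone (0.0544), and without any of 6 of the 9 libraries, LacZ replicates 2 (0.132) and 3 (0.163), Mut replicates 1 (0.204), 2 (0.0861) and 3 (0.0547) and WT replicate 1 (0.0699). Col27a1 had 190.1, 184 and 176 CPM, higher than with WT (log2 fold change 0.43, SE 0.0522, adjusted p = 1.72e-08) and LacZ (log2 fold change 0.47, SE 0.0529, adjusted p = 2.48e-08), with no overlap in either comparison. Col8a1 had 39.8, 33.0 and 34.3 CPM, higher than with WT (log2 fold change 0.40, SE 0.0884, adjusted p = 4.53e-04) and not called against LacZ (log2 fold change -0.23, adjusted p = 0.0858), where it was called lower without LacZ replicate 3 (0.0308) or Mut replicate 1 (0.0398). Col12a1 had 155, 142 and 144 CPM, higher than with WT (log2 fold change 0.20, SE 0.0546, adjusted p = 0.00598), a call lost without WT replicate 3 (0.0585) or Mut replicate 1 (0.0638), and not called against LacZ (log2 fold change 0.14, adjusted p = 0.108), where it was called higher without LacZ replicate 1 (0.0134). These p-values are edgeR's. Col11a2 stood at 57.3, 53.4 and 59.3 CPM with Mut, higher than with LacZ (log2 fold change 0.34, adjusted p = 0.00117) and not called against WT (log2 fold change -0.04, adjusted p = 0.738). Col20a1, a FACIT chain, stood at 16.7, 14.9 and 16.1 CPM with LacZ, 20.1, 18.2 and 18.6 CPM with WT and 22.7, 24.3 and 19.2 CPM with Mut. It was higher with Mut than with LacZ (log2 fold change 0.48, adjusted p = 0.00206) and not called against WT (log2 fold change 0.23, adjusted p = 0.0907), where it was called without Mut replicate 3 (0.0312).

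With Mut, 0 type IV chains passed the test against WT by edgeR (0 at an unadjusted p under 0.05, 0 by DESeq2) and 0 against LacZ (1 higher at an unadjusted p under 0.05, 0 by DESeq2). Col4a1 had 13301, 12987 and 13230.2 CPM with Mut (log2 fold change 0.024, adjusted p = 0.609 against WT, log2 fold change -0.037, adjusted p = 0.511 against LacZ). Col4a2 had 6998, 6718 and 6893 CPM with Mut (log2 fold change -0.034, adjusted p = 0.48 against WT, log2 fold change -0.047, adjusted p = 0.407 against LacZ). Col4a5 had 321, 295 and 306 CPM with Mut (log2 fold change 0.049, adjusted p = 0.418 against WT, log2 fold change 0.10, adjusted p = 0.104 against LacZ). The exception to these calls was Col4a5, called higher than with LacZ without LacZ replicate 1 (adjusted p = 0.0472, edgeR). Col5a1 and the type VI chains Col6a1 and Col6a2 were not called in either comparison. Col5a1 had 1893, 1809 and 1854 CPM with Mut (log2 fold change 0.069, adjusted p = 0.162 against WT, log2 fold change 0.013, adjusted p = 0.88 against LacZ). Col6a1 had 4204, 4051 and 4022 CPM with Mut (log2 fold change 0.056, adjusted p = 0.19 against WT, log2 fold change 0.05, adjusted p = 0.355 against LacZ). Col6a2 had 3059, 2995 and 2983 CPM with Mut (log2 fold change -0.019, adjusted p = 0.709 against WT, log2 fold change -0.084, adjusted p = 0.0707 against LacZ). With DESeq2, Col6a2 was called lower with Mut than with LacZ (adjusted p = 0.0338). Col4a3, Col7a1, Col8a2, Col9a3, Col17a1, Col23a1 and Col28a1 passed neither test, though Col8a2 was called lower with Mut than with WT without WT replicate 3 (0.0268) and with thinned libraries (0.0429), by edgeR.

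The lists beside the chains were read in the same comparisons, against 12.1% of all genes higher and 11.7% lower with Mut than with WT. Of the 18 modification and folding genes 7 were higher (38.9%) and 2 lower (11.1%, near the background), with a median of 0.11, and with P4ha2 (log2 fold change 0.40, adjusted p = 4.68e-08), Fkbp14 (log2 fold change 0.22, adjusted p = 0.018) and Plod1 (log2 fold change 0.21, adjusted p = 1.48e-05) the highest and Plod2 (log2 fold change -0.16, adjusted p = 0.0189) and Plod3 (log2 fold change -0.14, adjusted p = 0.0058) lower. Of the 11 crosslinking genes (median 0.12) 5 were higher (45.5%), led by Pcolce2 (log2 fold change 0.78, adjusted p = 0.00988), Lox (log2 fold change 0.71, adjusted p = 2.61e-21) and Loxl4 (log2 fold change 0.54, adjusted p = 7.66e-06), and Adamts2 (log2 fold change -0.40, adjusted p = 4.48e-05), which trims the N-terminal propeptide, and Loxl1 (log2 fold change -0.30, adjusted p = 6.60e-08) were lower (18.2%). Of the 7 receptors (median 0.14) Ddr2 (log2 fold change 0.28, adjusted p = 1.65e-07) and Mrc2 (log2 fold change 0.14, adjusted p = 0.00187) were higher (28.6%). Of 13 tested basement membrane partners (median -0.17) 8 were lower (61.5%), Lamb3 (log2 fold change -3.11, adjusted p = 3.02e-06), Lama5 (log2 fold change -2.48, adjusted p = 7.41e-06) and Nid2 (log2 fold change -1.12, adjusted p = 5.27e-17) the furthest, and 2 were higher (15.4%), Lamb2 (log2 fold change 0.42, adjusted p = 4.32e-08) and Sparc (log2 fold change 0.19, adjusted p = 9.31e-06). Again the direction of Lama5, from the list that the study chose on these samples, is not independent evidence. Against LacZ, where 4.78% of all genes were higher and 4.46% lower with Mut, 2 modification and folding genes (11.1%) and 4 crosslinking genes (36.4%) were higher. They included P4ha2 (log2 fold change 0.23, adjusted p = 0.00196) and Plod1 (log2 fold change 0.15, adjusted p = 0.00282) of the former and Loxl4 (log2 fold change 0.54, adjusted p = 5.10e-05), Lox (log2 fold change 0.51, adjusted p = 1.41e-15) and Loxl3 (log2 fold change 0.34, adjusted p = 0.00136) of the latter, while Adamts2 (log2 fold change -0.55, adjusted p = 4.62e-07) was lower (9.09% of its list) and 0 receptors passed the test by edgeR (1 lower at an unadjusted p under 0.05, 0 by DESeq2). Of the basement membrane partners (median -0.16) 6 were lower than with LacZ (46.2%), Nid2 (log2 fold change -0.61, adjusted p = 1.11e-07) and Lama4 (log2 fold change -0.23, adjusted p = 5.96e-05) among them, and Lamb2 (log2 fold change 0.33, adjusted p = 3.08e-05) and Sparc (log2 fold change 0.20, adjusted p = 1.47e-05) were higher (15.4%).

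Chains that assemble together were compared within each library, as the log2 ratio of their counts, where depth and scaling cancel and a fixed length cancels between groups. The Col1a1/Col1a2 ratio was -1.35, -1.37 and -1.41 in shEmpty and -0.95, -0.98 and -0.94 in shJmjd1a, a difference of 0.42 ± 0.0236 (SE) on the log2 scale. It was -0.94, -0.96 and -0.95 with LacZ, -0.88, -0.88 and -0.90 with WT and -1.07, -1.12 and -1.09 with Mut. The lowest ratio was thus that of shEmpty, and within the rescue set that of Mut, with no overlap between any of these groups compared within a set. Type I collagen is a trimer of 2 alpha 1 chains and 1 alpha 2 chain, and per length of the longest transcript the RNA ratio of Col1a1 to Col1a2 was 0.347 in shEmpty and 0.464 in shJmjd1a, and 0.712 and 0.952 per length of merged exons.

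The ratio of the type IV partners differed little. Col4a1/Col4a2 was 0.83, 0.86 and 0.87 in shEmpty and 0.92, 0.95 and 0.96 in shJmjd1a, and stayed between 0.87 and 0.95 in the 9 rescue libraries, with WT lower than LacZ by 0.048 on average. Between shJmjd1a and shEmpty, Col5a1/Col5a2 differed by -0.17 ± 0.0224 (SE) and Col6a1/Col6a2 by 0.059 ± 0.0263. Col6a1/Col6a3 showed the widest range of the type VI pairs. It was -0.28, -0.34 and -0.25 in shEmpty and -0.18, -0.15 and -0.20 in shJmjd1a, then -0.75, -0.59 and -0.66 with LacZ, -0.83, -0.76 and -0.85 with WT and -0.45, -0.44 and -0.38 with Mut. Mut exceeded WT by 0.39 ± 0.0345 (SE) without overlap. The step from shJmjd1a to LacZ lies between the sets, where the set and the expression of LacZ cannot be told apart, and was not tested. For Col8a1/Col8a2 the ratio rested on 2 to 28 counts of Col8a2 per library and is not described further. No test was made, since 3 against 3 libraries cannot go below p = 0.10 in an exact permutation test.

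**Figure D5:**
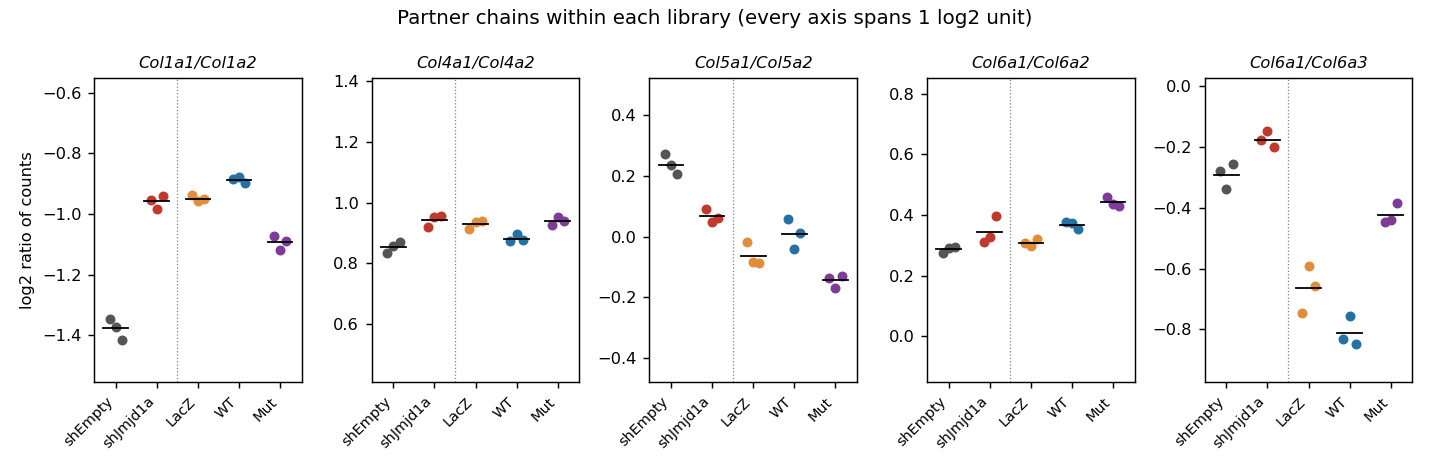
Log2 ratio of counts (vertical axes, each spanning 1 log2 unit) of 5 pairs of partner collagen chains in every library (points) with the mean of each group (lines), the knockdown set left of the dotted line and the rescue set right of it. Col1a1/Col1a2 is lowest in shEmpty and Col4a1/Col4a2 is nearly level. Col6a1/Col6a3 ranges from about -0.34 to -0.15 in the knockdown set and from about -0.85 to -0.38 in the rescue set.

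Some chains are neighbours on the chromosome when collagen chain genes alone are counted, a property that the choice of genes did not use. Col4a1 and Col4a2 lie head to head on chromosome 8 of mm9, their annotated ends overlapping by 22 bp, and they rose by 0.23 and 0.14 (log2 fold change) on knockdown. Because the start of each lies within the other, the window before either start is transcribed and was not printed. Col3a1 and Col5a2 lie tail to tail on chromosome 1, 24614 bp apart. They rose by 0.86 and 0.64 on knockdown, but with WT against LacZ went in opposite directions (0.12 and -0.13), as they did with Mut against WT (-0.17 and 0.22). Col6a1 and Col6a2 lie on the same strand of chromosome 10, 85161 bp apart, and fell by 0.11 and 0.17 on the log2 scale on knockdown. Col18a1, the next collagen chain gene along from Col6a1 at a distance of 326009 bp, fell by 1.08. Col1a1 shares 109 bp of its exons (1.66%) with an antisense gene, Gm17329, and Col5a1 shares 99 and 113 bp with 2810430I11Rik and Gm13372, whose reads cannot be told apart without the strand setting.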

How the data were processed

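RNA was polyA-selected and sequenced from 15 libraries, and the authors deposited for each library a table of whole-number counts per gene, keyed by Entrez Gene number. Per the study's methods, reads were trimmed with fastp, aligned to mm9 with HISAT2 and counted with featureCounts. The strand setting is not given in the sources used here.

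The counts were used as deposited. Symbols were matched through RefSeq tables (GRCm38.p6, used for names and promoter sequence only), and GENCODE M1 (NCBIM37, which is mm9) gave gene positions, exon lengths and neighbours. Within each set (6 knockdown and 9 rescue libraries, fitted apart) genes were kept by filterByExpr with a minimum count of 10, scaled by TMM and tested with the quasi-likelihood F test of edgeR 4.0.16 in R 4.3.3, all groups of a set sharing the dispersion. P-values were adjusted by Benjamini-Hochberg over all genes tested, and called means an adjusted p under 0.05. Total counts of 11437058 to 25523148 per library set the precision. Replicate pairs differed by more than counting noise (chi-square per degree of freedom 2.07 to 5.44), so all 15 libraries were kept apart. Fitted to simulated counts in which 200 genes changed 2-fold, the test recovered 88.5% to 91.5% of them over the 4 comparisons, with 1.66% to 7.81% of calls false.

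The collagen chain genes and the lists beside them were chosen with earlier results of these data known. Values in every library are given for each chain with a mean of at least 50 CPM in a set and, within each class, for the 3 largest called changes in each direction of each comparison. Of the other lists the 3 largest called changes in each direction are named, except for a basement membrane gene that is not reported here. Alternatives were RLE size factors, scaling without the chains, no filter, at least 10 counts in every library, 1 fit of all libraries, only the 2 groups compared, the legacy quasi-likelihood, DESeq2 1.42.0, stricter thresholds, a replicate block, thinned libraries and each library left out. The promoters of Col1a2, Col3a1, Col18a1 and Col5a3 and lengths of the longest coding transcript were chosen after seeing the data.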

Additional observations from a re-analysis of the deposited data

How the results depend on the processing

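No called difference of a collagen chain changed direction under any alternative run. Main counts of called chains were 22 on knockdown, 9 with WT against LacZ, 12 with Mut against WT and 10 with Mut against LacZ. Asking also for a log2 change of 1 or more in size left 5, 1, 2 and 1 in that order, fewer by construction. Leaving out 1 library gave 20 to 22, 7 to 10, 11 to 13 and 7 to 10 chains. DESeq2 called 22, 9, 12 and 11, and at least 10 counts in every library left 21, 8, 11 and 9. Equal replicate numbers did not pair the libraries, since deviations of same-numbered libraries from their group means correlated between -0.0442 and 0.0541 over 12 pairs. A replicate block gave 22, 10, 12 and 12 chains, adding calls for Col23a1 with WT against LacZ (adjusted p = 0.0401) and for Col12a1 (0.0419) and Col6a2 (0.02) with Mut against LacZ. Of 2166 recomputed values of single chains 2070 kept their side of the threshold, 84 lost a call, 44 of them under the fold limit, and 12 gained one. Without 1 library the shares of counts on the chains were 4.19 to 4.21% in shEmpty, 5.31 to 5.37% in shJmjd1a, 6.03 to 6.14% with LacZ, 6.13 to 6.29% with WT and 5.90 to 6.03% with Mut, and over named genes without Kdm3a the shEmpty share was 4.22%, more than its SD from 4.20%. Other scalings moved the median of all genes by less than 0.01 on the log2 scale. Depth limits the chains of about 3 CPM or less, such as Col15a1, Col8a2, Col17a1 and Col23a1, where a few counts decide a call.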
